A study of Rattus norvegicus with 9 samples.

Results

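Kcnj11, Abcc8, Cacna1c and Cacna1d are 4 of the 20645 genes listed for rat INS-1E cells, taken by gene symbol because their products form the KATP channel and the L-type calcium channels of the beta cell. Each symbol matched 1 gene, and all 4 were among the 12958 genes tested, which had a mean FPKM (fragments per unit of transcript length, relative to sequencing depth) of at least 1 over the libraries. INS-1E is a rat insulinoma line labelled as insulin secreting, and 9 libraries of polyadenylated RNA were sequenced, 3 per group. The BSA group received fatty acid-free BSA for 24 h, the PA group 0.5 mM palmitic acid, and the PA + C3G group the same palmitic acid together with 50 µM cyanidin-3-O-glucoside, an anthocyanin. The methods describe the experiments in general as biologically replicated, while neither they nor the labels say whether the libraries of a group came from separate cultures or days, so p-values measure only the spread between these libraries. In bulk RNA, fewer expressing cells and less RNA per cell cannot be told apart.

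In a beta cell, the KATP channel holds the membrane near its resting voltage. When glucose is metabolized, ATP closes the channel, the membrane depolarizes, and L-type calcium channels open and let in the calcium that triggers release of insulin granules. Kcnj11 encodes Kir6.2, the potassium pore that ATP closes. Abcc8 encodes SUR1, the regulatory subunit that binds sulfonylurea drugs and magnesium nucleotides and is needed to bring the pore to the cell surface. Cacna1c and Cacna1d encode Cav1.2 and Cav1.3, the pore-forming α1 subunits of L-type channels.

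Total estimated counts lay between 45559993 and 66730721 per library. Low counts pile up at multiples of 4 (4044 values at 4, against 2040 at 3 and 1276 at 5), so the counts may overstate the number of sequenced fragments. All 10 beta cell markers searched passed the same filter, with summed levels from 44946 to 45638 FPKM in the BSA libraries, 18755 to 19323 in the PA libraries and 41654 to 47396 in the PA + C3G libraries. These sums are mostly Ins1, Ins2 and Iapp (means over all libraries of 24132, 7552 and 3129 FPKM), so they do not describe each marker. Over all libraries Neurod1 ranged only from 134 to 161 FPKM, while Slc2a2 ranged from 100 to 527. Of 3 alpha cell markers in the table, 2 passed it, Gcg among them, and Ttr was near 0, and the summed alpha cell level was 26.1 to 41.6 FPKM with BSA, 5.62 to 8.45 with PA and 15.3 to 27.6 with PA + C3G. The summed levels of the delta, acinar and endothelial markers in the table were at most 0.0449, 0.112 and 0.0942 FPKM in any library and those of macrophage markers at most 0.812, whereas duct markers (Sox9) lay between 2.52 and 6.04 and fibroblast markers (Pdgfra, with Col1a1 and Col3a1 near 0) between 2.08 and 3.53. The part of these marker shifts in the results given here was not tested.

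All 4 members lie on the minus strand of the authors' annotation, whose genome build is not given in the sources used here. Kcnj11 (ENSRNOG00000021128) spans chromosome 1 from 102103094 to 102106127. Abcc8 (ENSRNOG00000021130) spans chromosome 1 from 102110708 to 102191287, so that the KATP genes are neighbours separated by 4580 bases, with no other listed gene between them. Cacna1c (ENSRNOG00000007090) spans chromosome 4 from 150641066 to 150829913, and Cacna1d (ENSRNOG00000013147) spans chromosome 16 from 6112150 to 6404957. The table's KEGG annotation places all 4 in the insulin secretion and type II diabetes pathways.

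On the FPKM scale, which is per length, the order of levels was the same in every library, with Kcnj11 highest, then Abcc8, Cacna1d and Cacna1c. No neighbours in this order overlapped within a group. In the BSA group only 3.12% of tested genes were above Kcnj11 and 4.65% above Abcc8, whereas 33.7% were above Cacna1d and 55.9% above Cacna1c. Cacna1d and Cacna1c stood nearer to the middle of the tested genes than the KATP genes did.

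Kcnj11, the pore, was higher with PA than with BSA by a small step and higher again with C3G added to PA. Its level was 164, 164 and 161 FPKM in the 3 BSA libraries, 169, 186 and 171 in the PA libraries, and 220, 227 and 216 in the PA + C3G libraries. The 3 groups did not overlap, and their means ± SD over 3 libraries were 163 ± 1.76, 175 ± 9.39 and 221 ± 5.28 FPKM. C3G raised Kcnj11 1.29-fold over PA alone (log2 fold change 0.37 ± 0.04 standard error, with an adjusted p of 0.000611 by the quasi-likelihood test of edgeR over all tested genes). Over 19 alternatives the log2 fold change lay between 0.28, with libraries put on an equal FPKM total, and 0.42, without PA replicate 2. Of all tested genes, 8.27% had a larger log2 fold change in this comparison. Relative to BSA, Kcnj11 in the PA + C3G group was 1.41-fold higher (log2 fold change 0.50 ± 0.04, edgeR adjusted p = 2.01e-05).

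The rise of Kcnj11 with PA alone was small, 1.09-fold (log2 fold change 0.13 ± 0.04, edgeR adjusted p = 0.0327). This call did not hold in 10 of 19 alternatives. Without BSA replicate 1, 2 or 3 the adjusted p was 0.0846, 0.0657 and 0.115, without PA replicate 2 it was 0.09997 with a log2 fold change of 0.08, and without PA + C3G replicate 1 or 3 it was 0.0508 and 0.0522 (all from edgeR).

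Abcc8, the regulatory subunit, rose with PA, and its level with C3G added to PA overlapped that of PA alone. It was at 112, 117 and 112 FPKM in the BSA libraries, 146, 157 and 150 in the PA libraries, and 144, 160 and 151 in the PA + C3G libraries. All PA and PA + C3G libraries were above all BSA libraries, and the PA and PA + C3G libraries overlapped. The group means ± SD over 3 libraries were 114 ± 2.90 FPKM for BSA, 151 ± 5.23 for PA and 152 ± 8.26 for PA + C3G. PA raised Abcc8 1.35-fold (log2 fold change 0.44 ± 0.05, edgeR adjusted p = 4.09e-05), and 15.4% of tested genes had a larger log2 fold change. For PA + C3G versus PA the log2 fold change was 0.04 with a 95% interval from −0.06 to 0.15 (adjusted p = 0.574 from edgeR), and its sign turned to −0.05 when libraries were put on an equal FPKM total and to −0.00046 without PA + C3G replicate 2. Relative to BSA, Abcc8 was 1.39-fold higher with PA + C3G (adjusted p = 4.00e-05 from edgeR).

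**Figure D1:**
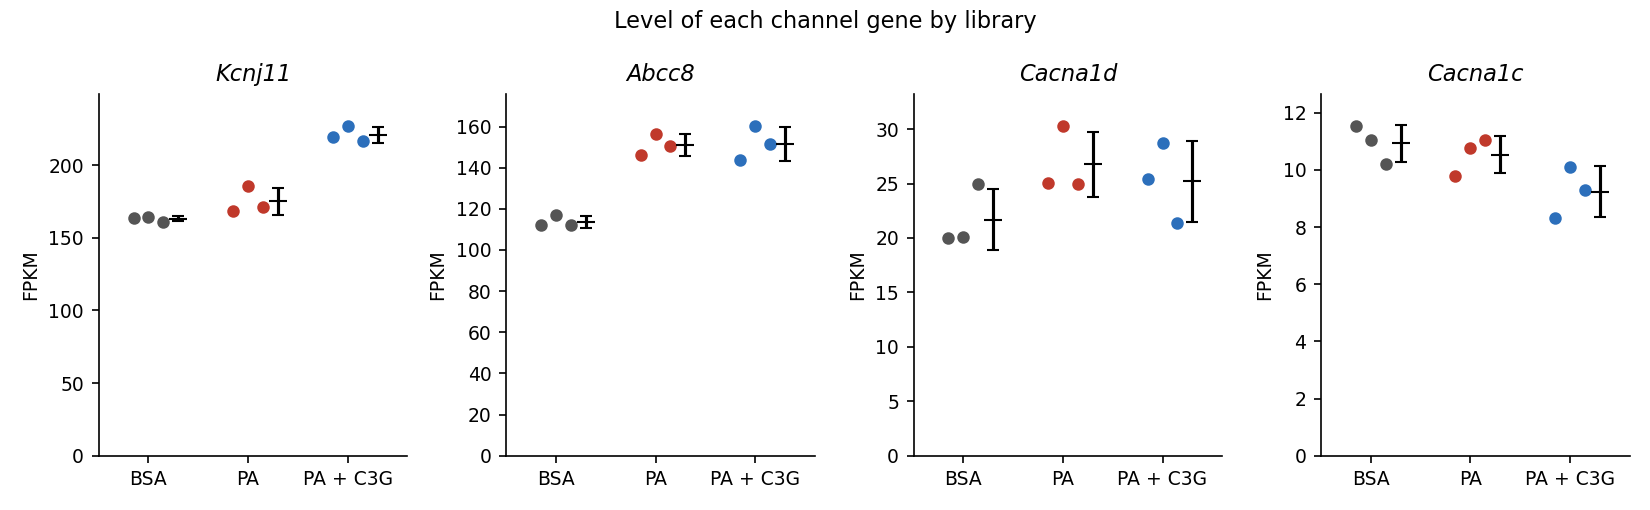
FPKM of the 4 channel genes on separate vertical axes that start at 0, with 1 point per library in the order of replicate number and the group mean with its SD beside the points (n = 3 per group). Kcnj11 steps up in the PA + C3G group (216 to 227 FPKM), whereas Abcc8 is already higher with PA (146 to 157 FPKM) than with BSA, and the Cacna1d and Cacna1c points of PA and PA + C3G overlap.

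Since SUR1 and Kir6.2 assemble together in equal numbers, the ratio of their transcripts was followed within each library, where library scaling cancels out. The Abcc8 to Kcnj11 FPKM ratio was 0.684, 0.711 and 0.695 in the BSA libraries, 0.866, 0.841 and 0.879 in the PA libraries, and 0.654, 0.706 and 0.699 in the PA + C3G libraries. It was higher in every PA library than in every library of the other groups, and the BSA and PA + C3G libraries overlapped. PA raised the ratio 1.24-fold over BSA, and the PA + C3G group was 0.796-fold of PA. In both comparisons the two-sided exact permutation test gave p = 0.1, the smallest that 3 libraries against 3 allow, and 0.3 after Benjamini-Hochberg adjustment over the 6 ratio tests. PA + C3G against BSA gave 0.984-fold (exact permutation p = 0.7, adjusted 0.7). The PA libraries enter both of the first comparisons, which are therefore not independent.

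**Figure D2:**
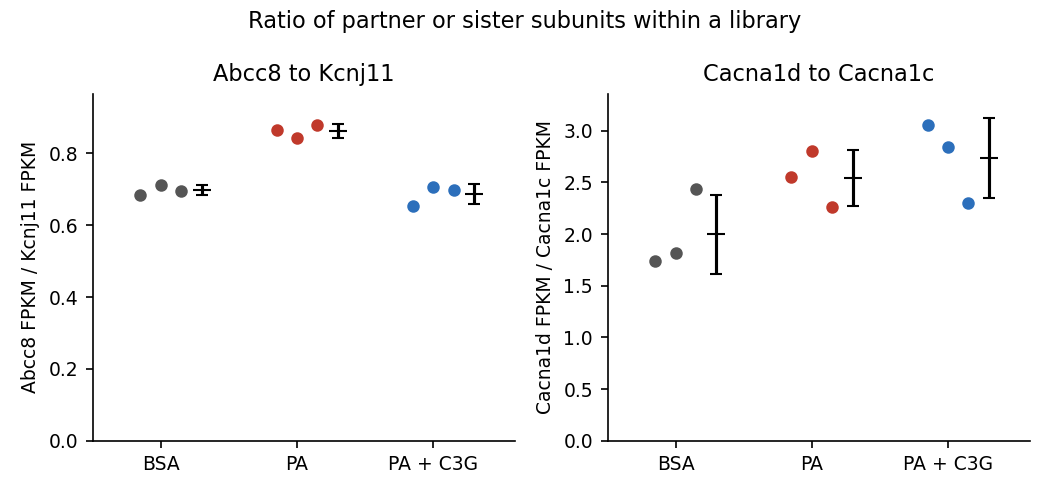
FPKM of Abcc8 divided by that of Kcnj11 (left) and FPKM of Cacna1d divided by that of Cacna1c (right) in each library, with the group mean and SD (n = 3 per group). The 3 PA points on the left (0.841 to 0.879) lie above all others, whereas the groups on the right overlap.

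Cacna1d, the more abundant L-type pore, had no change past the threshold, and its libraries were spread more widely than those of the other members. The 3 BSA libraries were at 20.03, 20.1 and 24.9 FPKM, the PA libraries at 25.0, 30.2 and 25.0, and the PA + C3G libraries at 25.5, 28.8 and 21.4. BSA replicate 3 nearly reached the PA group, and the PA + C3G libraries overlapped both other groups. Means ± SD over 3 libraries were 21.7 ± 2.81 FPKM for BSA, 26.8 ± 3.03 for PA and 25.2 ± 3.69 for PA + C3G. The coefficient of variation within groups was 11.9% to 14.8%, while counting error on the counts divided by 4 was at most 2.00%. PA versus BSA gave a log2 fold change of 0.33 with a 95% interval from 0.04 to 0.61, which missed the threshold (adjusted p = 0.0536 from edgeR).

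The side of the threshold for Cacna1d in PA versus BSA changed with the libraries and settings used. The adjusted p from edgeR was 0.0228 without BSA replicate 3, where the log2 fold change was 0.43, 0.0410 and 0.0361 without PA + C3G replicate 2 or 3, and 0.185 at most over the other omissions of 1 library. For PA + C3G versus PA the log2 fold change was −0.05 (95% interval from −0.33 to 0.23), and for PA + C3G versus BSA it was 0.28 (95% interval from −0.0047 to 0.56, adjusted p = 0.114 from edgeR), with an adjusted p of 0.0447 without PA + C3G replicate 3.

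Cacna1c, the other L-type pore, had no change past the threshold in any comparison. Its level was 11.5, 11.04 and 10.2 FPKM in the BSA libraries, 9.80, 10.8 and 11.05 in the PA libraries, and 8.33, 10.1 and 9.29 in the PA + C3G libraries. On the FPKM scale the PA libraries overlapped both other groups, whereas all PA + C3G libraries were below all BSA libraries. The nearest were PA + C3G replicate 2 at 10.1 FPKM and BSA replicate 3 at 10.2 FPKM. On counts scaled by the TMM factors, as in the edgeR fit, their order turned (86.4 and 83.7). The PA + C3G and BSA libraries therefore overlapped on that scale. Means ± SD over 3 libraries were 10.9 ± 0.657 FPKM for BSA, 10.5 ± 0.656 for PA and 9.24 ± 0.891 for PA + C3G. For PA versus BSA the log2 fold change was −0.03 (95% interval from −0.20 to 0.14), and for PA + C3G versus PA it was −0.15 (95% interval from −0.32 to 0.02, adjusted p = 0.195 from edgeR). For PA + C3G versus BSA it was −0.18 (95% interval from −0.35 to −0.01, adjusted p = 0.0938 from edgeR), and without PA + C3G replicate 2 it was −0.26 with an edgeR adjusted p of 0.0281.

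The Cacna1d to Cacna1c ratio ranged from 1.74 to 2.44 with BSA, from 2.26 to 2.81 with PA and from 2.30 to 3.06 with PA + C3G. The groups overlapped, and the exact permutation p was 0.2 for PA versus BSA, 0.5 for PA + C3G versus PA and 0.2 for PA + C3G versus BSA (adjusted 0.3, 0.6 and 0.3). Since 0.1 is the smallest p this test allows here, it could not have passed the threshold for a difference of any size, and these values do not say whether the L-type pores responded alike.

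**Figure D3:**
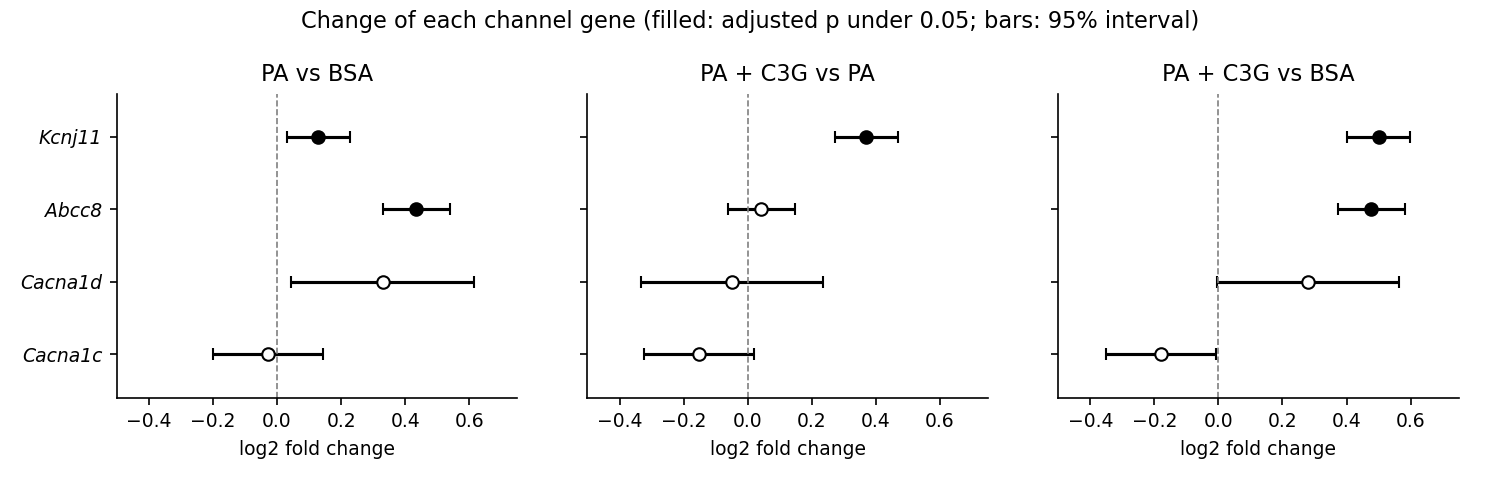
Log2 fold change of each member from the edgeR fit to all 9 libraries, with its 95% interval, in the 3 comparisons, filled where the adjusted p was under 0.05 and open otherwise. Abcc8 (0.44) moved more than Kcnj11 (0.13) with PA, Kcnj11 (0.37) passed and Abcc8 (0.04) did not with C3G over PA, and over BSA they stood at 0.50 and 0.48.

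The count of members called is read against the share of all tested genes called. For PA versus BSA 2 of 4 members were called, both higher, where 51.0% of tested genes were called in either direction and 25.8% higher. For PA + C3G versus PA it was 1 of 4, higher, against 21.2% in either direction and 11.1% higher, and for PA + C3G versus BSA 2 of 4, both higher, against 36.9% and 19.0%. The study's criterion of a fold change above 2 with an unadjusted p-value under 0.05 was met by none of the members, against 7.56%, 1.13% and 4.63% of tested genes in the same 3 comparisons. Of the members' called changes, the largest was the 1.41-fold rise of Kcnj11 with PA + C3G over BSA.

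The members work with further subunits, which were followed as lists. The alternative KATP subunits Kcnj8 and Abcc9 have no entry under these symbols among the listed genes, so they could not be analysed. Among the 7 tested Cav α1 pores, 1 was higher and 4 lower with PA than with BSA (median log2 fold change −0.23, against 0.00 over all tested genes). Of all tested genes, 25.8% were called higher and 25.2% lower. Those that fell were Cacna1a (P/Q-type, −0.38) and the T-type pores Cacna1g (−0.62), Cacna1h (−0.23) and Cacna1i (−0.92), and Cacna1b (N-type, 0.25) rose. Cacna1i was near the filter, at 1.75 FPKM with BSA and 0.909 with PA, and at −0.53 with limma on log2(FPKM + 1). Cacna1e was below the filter and not tested, at 0.333 FPKM with BSA, 0.967 with PA and 0.423 with PA + C3G. With C3G over PA, 3 of the tested pores were higher and 1 lower (median 0.38, against 0.00), where 21.2% of all tested genes were called. Cacna1a was at 0.40, Cacna1g at 0.69 and Cacna1h at 0.43, while Cacna1i was at 0.38 (95% interval from −0.19 to 0.95). Cacna1b was at −0.15 (adjusted p = 0.0292 from edgeR, and 0.1005 at most without PA replicate 1 or 3 or PA + C3G replicate 1 or 3). With PA + C3G over BSA, where 36.9% of all tested genes were called, 1 of the 7 was called. This was Cacna1h at 0.21, which did not hold in 6 of 19 alternatives.

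The L-type pores made up a larger share of the α1 transcripts in the PA libraries than in the others. Cacna1c and Cacna1d together made up 25.2% to 27.2% of the FPKM summed over the 10 Cav α1 genes in the BSA libraries, 30.4% to 35.0% in the PA libraries and 24.1% to 28.5% in the PA + C3G libraries. All PA libraries were above all others, and the BSA and PA + C3G libraries overlapped. For Cacna1d alone the mean share ± SD over 3 libraries was 17.2% ± 1.83 for BSA, 23.4% ± 2.12 for PA and 19.2% ± 2.21 for PA + C3G. Cacna1h, the T-type pore Cav3.2, held the largest share in each group, with means of 29.1%, 27.1% and 31.1%, and Cacna1e, the R-type pore, had means of 0.265%, 0.846% and 0.322%. These shares were not tested, and a transcript share is not a share of current. The share of the L-type pores also depends on the other pores. Cacna1a, Cacna1g and Cacna1h had a lower mean FPKM with PA than in either other group, and Cacna1b had a higher one.

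**Figure D4:**
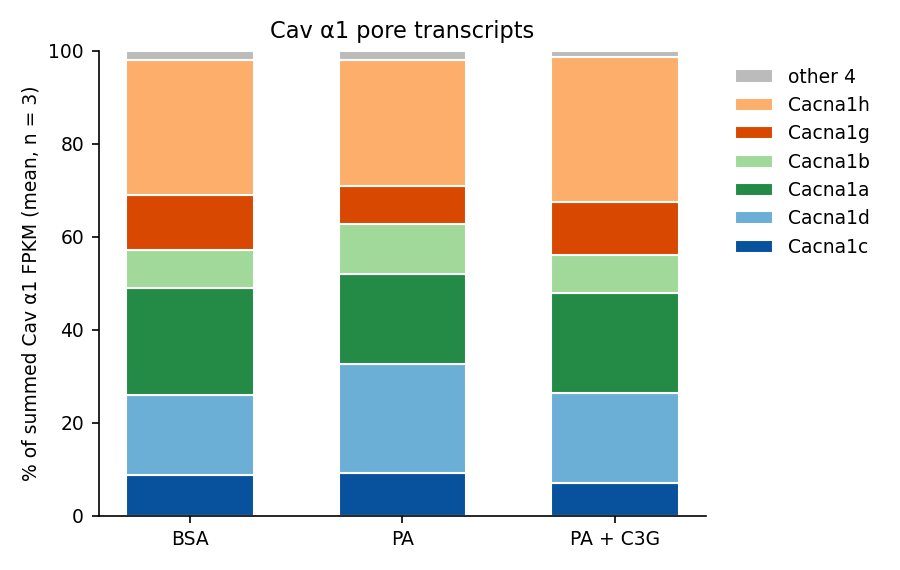
Mean share of each Cav α1 gene in the FPKM summed over the 10 α1 genes, stacked to 100% for each group (n = 3 libraries per group). The blue segments at the base, Cacna1c and Cacna1d, are taller with PA than with BSA or PA + C3G.

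The auxiliary β and α2δ subunits set how many Cav channels reach the membrane and how they gate, and genes named as γ subunits were followed with them. Among 3 tested β subunits, Cacnb3, the most abundant at 174 FPKM with BSA, rose with PA (log2 fold change 0.29) and fell by 0.20 with C3G over PA, Cacnb1 rose by 0.32 with C3G over PA, and Cacnb2 was at 0.10 and 0.02, neither past the threshold. Of 7 tested α2δ and γ subunits, 3 were higher and 1 lower with PA (median 0.20), where 51.0% of all tested genes were called. Called were Cacna2d1 at 0.35, Cacna2d2 at 0.66, Cacng6 at 0.45 (adjusted p = 0.0418 from edgeR, not held in 8 of 18 alternatives) and Cacng4 at −0.51. Cacna2d3 (0.20), Cacng2 (0.16) and Cacng7 (−0.16) did not pass. The α2δ gene Cacna2d4 was below the filter over the 9 libraries and was not tested. Its mean was 2.28 FPKM with BSA, 0.0998 with PA and 0.488 with PA + C3G. With C3G over PA, Cacna2d1 was lower by 0.23 on the log2 scale, and Cacng4 was at 0.25, a call that did not hold in 9 of 19 alternatives. Over BSA, the PA + C3G group had Cacnb1 (0.24), Cacna2d2 (0.37) and Cacng6 (0.55) higher and Cacng4 (−0.27) lower. The calls of Cacnb1, Cacna2d2 and Cacng6 did not hold in 5 of 19, 3 of 19 and 5 of 18 alternatives, among them for each the fits without BSA replicate 1, without BSA replicate 3 and without PA + C3G replicate 2, with edgeR or limma adjusted p-values of at most 0.0611, 0.0659 and 0.0903, and Cacng6 was at 0.35 at the lowest, with limma on log2(FPKM + 1).

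**Figure D5:**
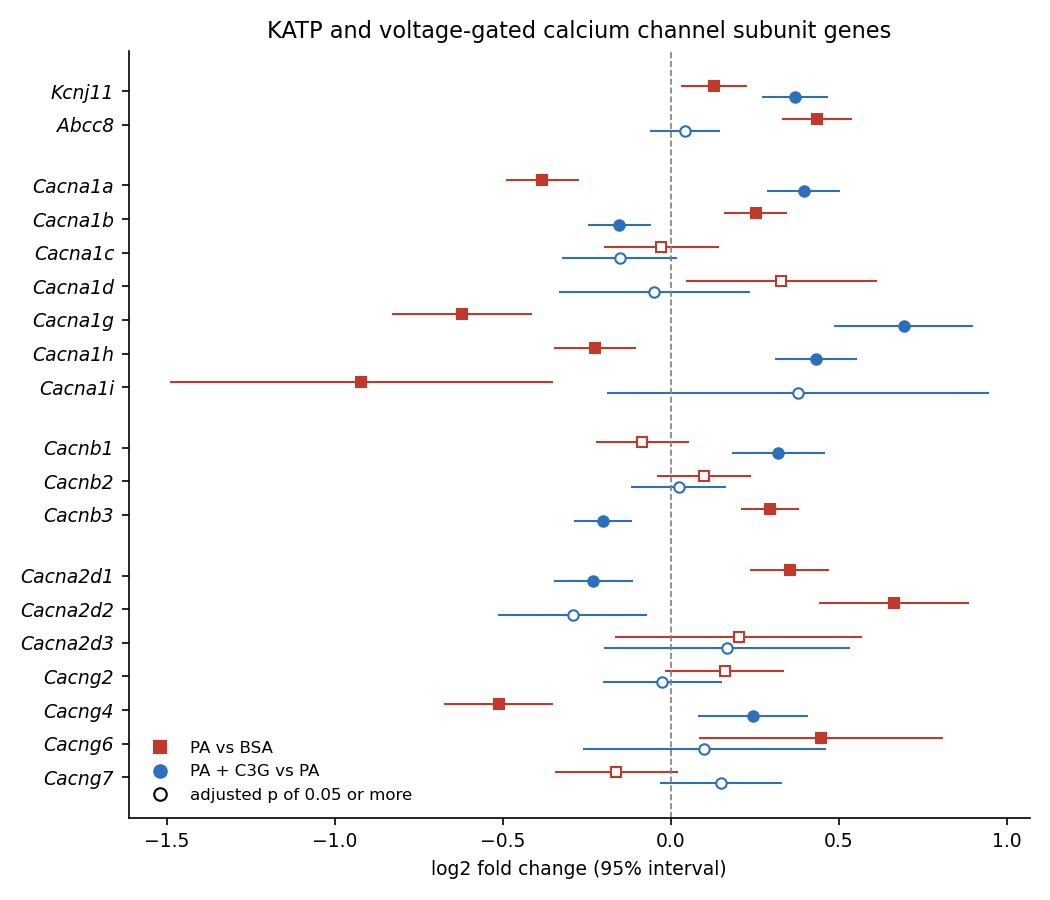
Log2 fold change with its 95% interval for the tested KATP and Cav subunit genes in PA versus BSA (red squares) and PA + C3G versus PA (blue circles), with open symbols where the adjusted p was 0.05 or more and the PA libraries in both comparisons. Cacna1a, Cacna1g and Cacna1h lie below 0 in PA versus BSA and above 0 in PA + C3G versus PA, whereas Kcnj11 lies above 0 in both.

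Proteins that restrain or bind the Cav pores were followed as a further list. Among 10 tested entries of the regulator list, 2 were higher and 6 lower with PA (median −0.26), where 51.0% of all tested genes were called. The lower ones include both entries that carry the symbol Calm2. With C3G over PA, 4 were higher and none lower (median 0.12), where 21.2% of all tested genes were called. Among these 4, the call of Tspan7 held in only 7 of 19 alternatives. Rem2, a small GTPase that inhibits Cav channels, was at 10.2 FPKM with BSA, 5.41 with PA and 9.14 with PA + C3G, with log2 fold changes of −0.88 and 0.79. Gem, a related GTPase, rose by 0.42 with PA, and Cabp1, a calcium-binding protein, by 0.50. For PA + C3G over BSA, 2 entries of this list were higher and 5 lower, where 36.9% of all tested genes were called.

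Over the 9 libraries, on log2(FPKM + 1), among the 5 tested genes whose profile was most like that of Kcnj11 were Slc35d3 (Pearson's r = 0.992), Atp8b1, Acadvl and Pcdhb22 (0.955). For Abcc8 they were Glul (0.997), RT1-S3, Cntnap4, AC127084 and Cdh23 (0.989), and 116 genes exceeded an r of 0.95, against 8 for Kcnj11. Glul, which encodes glutamine synthetase, had means of 135, 246 and 258 FPKM in the BSA, PA and PA + C3G groups, the same order as Abcc8. The most similar genes to Cacna1c were Rapgef1 (0.965), Rapgef2, Rsf1, Ubap2l and AABR07005618, and to Cacna1d AABR07039210 (0.962), Polg2, S100a13, Zfp3 and Erf, with 2 genes above 0.95 for each. The KATP genes were not in each other's lists. The libraries behind these values fall into 3 treatment groups and share their depth and scaling, so that r describes the likeness of profiles here and nothing more.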

How the data were processed

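Polyadenylated RNA was sequenced by the authors in paired-end mode. The deposited table holds, per library, estimated counts, which the authors did not normalize, and FPKM, which they scaled to gene length and mapped fragments. The submitters' processing notes list cutadapt 1.9, HISAT2 2.0.4, StringTie 1.3.4d, DESeq2 and edgeR. The genome build is not given in the sources used here. The doses come from the study's methods. The members and gene lists were chosen with earlier results of these data known. Genes were kept at a mean FPKM of 1 or more, and their counts were rounded and tested with edgeR 4.0.16 in R 4.3.3 (TMM, quasi-likelihood fit to all 9 libraries, Benjamini-Hochberg adjustment over all 12958 tested genes), with a call at an adjusted p under 0.05. Standard errors are the log2 fold change divided by the root of F. Ratios were compared with two-sided exact permutation tests in SciPy 1.17.1. The edgeR, limma and DESeq2 fits were also run on counts simulated for PA versus BSA. Far fewer genes were changed there than were called in these data, so that run cannot show how library scaling acts here.

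Alternatives were DESeq2 1.42.0, its size factors within edgeR, libraries put on an equal FPKM total, limma 3.58.1 on log2(FPKM + 1) or log2(FPKM + 0.1), no low-value filter, a minimum mean FPKM of 5, the compared groups alone, a replicate block, counts divided by 4, and each library left out in turn. Named were the 4 members, every other tested KATP or Cav subunit gene, of each further list up to 3 higher and 3 lower genes with the largest change among those called per comparison, and the 5 genes most like each member. A few genes that this rule names are not reported here.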

Additional observations from a re-analysis of the deposited data

How the results depend on the processing

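Counting error on the counts divided by 4 was at most 1.19% for Kcnj11, 1.13% for Abcc8 and 3.37% for Cacna1c. The spread between libraries of a group was 1.06% to 5.86% for Kcnj11, 2.63% to 5.35% for Abcc8 and 5.91% to 9.52% for Cacna1c. For Kcnj11 with BSA, the largest counting error of 1.19% was above the spread of 1.06%. Kcnj11 and Abcc8 in PA + C3G versus BSA, Kcnj11 in PA + C3G versus PA and Abcc8 in PA versus BSA kept their direction and call in all 19 alternatives. With libraries on an equal FPKM total, Cacna1c in PA versus BSA turned to 0.0014, Abcc8 in PA + C3G versus PA to −0.046, Cacna1d in PA versus BSA passed at 0.36 and Cacna1c in PA + C3G versus BSA at −0.24. DESeq2 also called the last, at −0.19. Kcnj11 in PA versus BSA missed the threshold with limma (0.10 with either pseudocount), without a filter (0.13) and with the compared groups alone (0.13). Cacna1d in PA versus BSA passed at a mean FPKM of at least 5 (0.32) and with the compared groups alone (0.33). The cause was not tested in these cases.

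Leaving out 1 library at a time, the log2 fold change in PA versus BSA lay between 0.080 and 0.15 for Kcnj11, between −0.082 and 0.017 for Cacna1c (0.0021 without BSA replicate 1 and 0.017 without PA replicate 1) and between 0.23 and 0.43 for Cacna1d. In PA + C3G versus PA it lay between −0.00046 and 0.077 for Abcc8 and between −0.16 and 0.054 for Cacna1d (0.053 without PA replicate 2 and 0.054 without PA + C3G replicate 3). In PA + C3G versus BSA it lay between −0.26 and −0.12 for Cacna1c and between 0.17 and 0.38 for Cacna1d. The log2 ratio of Abcc8 to Kcnj11 in PA + C3G versus BSA lay between −0.043 and 0.012 (0.012 without PA + C3G replicate 1). Genes called in PA + C3G versus PA numbered between 1718 (without PA replicate 3) and 2838. Of the genes called, 1436 were higher and 1316 lower in PA + C3G versus PA, and 2462 and 2321 in PA + C3G versus BSA, where the equal FPKM total gave 775 and 2525, and 1891 and 3039, and limma with a pseudocount of 1 gave 1065 and 1636, and 1850 and 3091.

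The groups share replicate numbers. Same-numbered libraries correlated in their deviations from the group means by −0.05 to 0.10 across genes, above 0.1 in 1 of 9 pairs, so the numbers were not taken as pairs. Against this choice, 12 of 18 library comparisons, each among 3 numbers, had the highest correlation with the same number. With the replicate number as a block, 6843, 3118 and 5058 genes were called in the 3 comparisons, against 6614, 2752 and 4783 without it. No member's call changed.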

Other observations

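Other genes that shape the membrane voltage and calcium of a beta cell were counted in the same way, beside the 51.0% of all tested genes called with PA over BSA, the 21.2% called with C3G over PA and the 36.9% called with PA + C3G over BSA. The shares called among the potassium channel, store and factor lists with PA were below these 51.0%, so their counts are given as a description and not as a result about the lists. Among 19 tested repolarising potassium channel genes, 4 were higher and 4 lower with PA than with BSA (median log2 fold change −0.02), and 3 were higher and 1 lower with C3G over PA (median 0.08). Kcnq1, a voltage-gated potassium pore, was at 4.13 FPKM with BSA, 1.62 with PA and 4.36 with PA + C3G, with log2 fold changes of −1.32 and 1.47 (adjusted p = 0.000259 from edgeR for the second). Kcnk3, a background potassium channel, rose by 1.09 with PA, and Kcnn1, a calcium-activated potassium channel, by 0.58. Of 5 tested sodium channel genes 4 were higher with PA. Of 18 tested genes of calcium stores and extrusion, 3 were higher and 5 lower with PA, among them Ryr2, a store release channel, at −0.98, Slc8a1, the sodium-calcium exchanger, at −0.53, and Itpr3, an IP3 receptor, at 0.63.

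Among 14 transcription factors known for KATP or Cav genes or for beta cell identity, 1 was higher and 6 lower with PA, and 6 were higher and none lower with C3G over PA. Pdx1 was at 254, 163 and 253 FPKM and Mafa at 381, 212 and 313 FPKM in the BSA, PA and PA + C3G groups. Nkx6-1 was at 50.02, 52.1 and 75.99 FPKM, with a log2 fold change of 0.08 for PA versus BSA and 0.58 for C3G over PA (adjusted p = 0.0122 from edgeR, and 0.0505 without PA replicate 3). Over BSA, the PA + C3G group had 3 potassium channel genes higher and 2 lower, 4 sodium channel genes higher, 5 store and extrusion genes higher and 3 lower, and 3 of the factors higher and 3 lower.

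The lists were chosen with earlier results of these data known, so their pooled counts are given as a description. Over all 85 tested entries of the lists, the members included, 21 were higher and 26 lower with PA than with BSA. Of all tested genes, 25.8% were higher and 25.2% lower. With C3G over PA, 23 entries were higher and 5 lower, where 11.1% of all tested genes were higher and 10.2% lower. Of the 27 calls outside the members in this comparison, 17 held under every alternative. With libraries put on an equal FPKM total, the split was 17 higher and 9 lower, against 775 and 2525 of the 12958 tested genes.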
